A study of Homo sapiens with 10 samples.

Results

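DRIP experiment 2 (WT and the line SCAN1#1, labelled replicate 2) was set against DRIP experiment 1 (WT and SCAN1#1, labelled replicate 1) on the same U2OS lines. These are 4 of the 10 samples of the series, 2 against 2, and they were chosen by their labels alone, with each line paired with itself. U2OS is an osteosarcoma cell line; WT cells carry unaltered TDP1, and SCAN1#1 cells carry TDP1 H493R, the change that causes the ataxia SCAN1. DRIP captures RNA-DNA hybrids from sonicated nucleic acids of uncrosslinked nuclei with the antibody S9.6. Per the labels the antibody came from 1 lot in experiment 1 and from a mix of 2 lots in experiment 2, so antibody lot and experiment cannot be told apart. The labels give one line name per SCAN1 line and do not say how it was derived. They do not say either whether the replicates were separate cultures, and p-values here measure only the spread between these libraries. The SCAN1#2 library of experiment 2 was not used to choose any gene or region and is given beside the others as a further reading of experiment 2 from another SCAN1 line.

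R-loops are structures in which RNA pairs with the DNA strand it was copied from and displaces the other strand. They form as genes are transcribed and are known for gathering at GC-rich promoters and around the sites where transcription ends, where they bear on pausing and release of RNA polymerase II. TDP1 clears trapped topoisomerase 1, an enzyme that relaxes the supercoils that transcription leaves behind.

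The deposited lists held 63456 to 110745 peaks, and the lists of experiment 2 were the longer ones in both lines. Each list was therefore cut to the 63456 peaks of highest -log10 p, which covered 40.7 to 46.5 Mb. How many reads stand behind each list is not known from the sources used. Peaks of the cut lists had a median width of 412 and 386 bases in WT and SCAN1#1 of experiment 1, and of 468 and 459 bases in experiment 2. Of 13 osteoblast and mesenchymal markers, 9 and 9 had a peak in experiment 1 and 8 and 8 in experiment 2, with IBSP, SPP1, TWIST1 and COL1A2 at 0 in all 4 libraries. Of 18 markers of other lineages, 4 to 6 had a peak and 11 were at 0 in all 4 libraries, among them ALB, INS, HBB and CD3E. The percent covered, summed over the lineage markers, ranged from 15.6 to 35.6 in experiment 1 and from 19.1 to 21.2 in experiment 2.

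The experiments recovered different kinds of sequence. In experiment 1 the ends and interiors of protein-coding genes took larger shares of the peak bases, and in experiment 2 the stretches between genes did. The far ends of coding genes (within 1 kb of the end opposite the start) held 6.03% of the peak bases in WT and 6.4% in SCAN1#1 in experiment 1, against 4.05% and 4.46% in experiment 2. Both libraries of experiment 1 were above both of experiment 2, and the ratio of the means was 0.684. The starts of coding genes (within 1 kb of the start) held 9.44% and 9.99% in experiment 1 and 8.01% and 8.94% in experiment 2, a ratio of 0.873. The SCAN1#2 library, at 10.1%, lay above both libraries of experiment 1 for starts while its far ends, at 3.99%, lay below all 4 other libraries. Gene interiors held 54.9% ± 2.11 (SD, n = 2) in experiment 1 and 49.4% ± 0.532 (SD, n = 2) in experiment 2.

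Intergenic sequence held 21.1% and 17.5% of the peak bases in experiment 1 and 27.6% and 25.6% in experiment 2, with 27.1% in SCAN1#2. Genes that are not protein-coding held 6.73% ± 0.434 (SD, n = 2) and 8.72% ± 0.261 (SD, n = 2). Within them the long noncoding RNA genes that lie outside coding genes went from 5.77% and 5.19% to 7.53% and 7.23%, while pseudogenes stayed between 1.26% and 1.31% in the 4 libraries. None of the 6 classes overlapped between the experiments, and each moved the same way in WT and in SCAN1#1. The exact two-sided permutation test over the 6 splits of 4 libraries gave p = 0.33 for every class, also after adjustment over the 6 classes, and this is the smallest p that 2 against 2 allow.

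**Figure D1:**
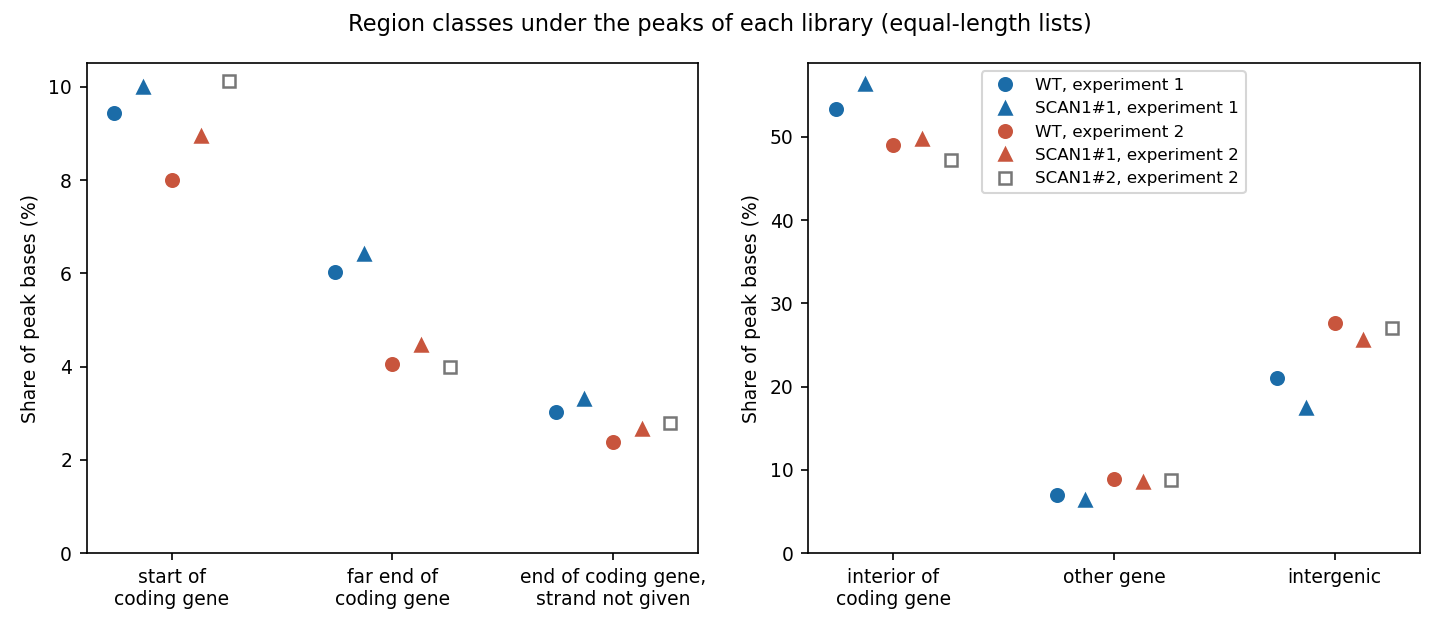
Share of peak bases (percent) in each region class, 1 point per library, from lists of equal length; circles are WT, triangles SCAN1#1 and open squares SCAN1#2, with experiment 1 in blue and WT and SCAN1#1 of experiment 2 in red. Far ends of coding genes lie at 6.03% and 6.4% in experiment 1 and at 3.99% to 4.46% in experiment 2, and intergenic sequence at 17.5% and 21.1% against 25.6% to 27.6%.

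Libraries of one experiment resembled each other more than libraries of one line. The Jaccard index of covered bases (bases shared over bases covered by either) was 0.401 between WT and SCAN1#1 in experiment 1 and 0.466 in experiment 2. Between experiments it was 0.368 for WT and 0.365 for SCAN1#1. Under a stricter count, in which 2 peaks match only where each covers at least 50% of the other, the pair of experiment 1 (0.337) lay below WT across experiments (0.386), so the order did not hold for experiment 1 on that measure.

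Merging the 4 lists gave 121357 regions, and 18407 of them were shared by the 4 libraries. A peak in both libraries of experiment 1 and in neither of experiment 2 was found at 5944 regions, and the reverse at 9851. The other pairings of 2 libraries gave 2132 to 3692 regions. The regions of experiment 1 alone lay in gene interiors for 62.2%, at far ends for 5.67% and between genes for 18.6%. Those of experiment 2 alone lay in gene interiors for 42.6% and between genes for 42.0%. A further 13.4% lay in genes that are not protein-coding and 0.518% at far ends. Over all merged regions, 52.5% lay in gene interiors and 29.6% between genes. The shares there were 9.53% for genes that are not protein-coding and 2.45% for far ends. SCAN1#2, which did not define these regions, had a peak in 58.8% of the regions of experiment 2 alone and in 19% of the regions of experiment 1 alone. The share was 41.9% over all merged regions and 39.4% to 47.2% in the other pairings. Of the regions of experiment 1 alone, 56.6% had a peak further down a deposited list of experiment 2, whereas 12.5% of the regions of experiment 2 alone had one in a deposited list of experiment 1. Those deposited lists are shorter in experiment 1, so these shares are not on one footing.

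By the mean rank of their peaks, the strongest regions of experiment 1 alone lay in the pseudogene GUSBP1 (chr5:21495547-21495770), in PPFIA1, which encodes a scaffold protein of cell adhesions, where the noncoding gene CTTN-DT also lies (chr11:70371326-70371567), in RASA4B, a Ras GTPase-activating protein gene (chr7:102507478-102507809), just outside the collagen gene COL1A1 (chr17:50182897-50183966) and in MED16, a subunit of the Mediator complex (chr19:876748-877957). SCAN1#2 had a peak at those in RASA4B and MED16. The strongest of experiment 2 alone were intergenic on chromosomes 4 (chr4:49139431-49139864), 22 (chr22:12178337-12178709) and 17 (chr17:21863813-21864525), and lay in SLC13A3, a dicarboxylate transporter gene (chr20:46599885-46600729), and HUNK, a kinase gene (chr21:31988317-31989032). SCAN1#2 had a peak at all 5 of them. The region in HUNK also had a peak in a deposited list of experiment 1, and that beside COL1A1 in one of experiment 2. Ranks follow -log10 p, and fold enrichment did not follow the same order. In WT and SCAN1#1 it was 7.39 and 6.53 at the chromosome 4 region, and 17.5 and 16.6 at HUNK. Whether reads map uniquely at these regions was not tested. All coordinates are hg38.

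Over protein-coding genes, the readout was the percent of the gene, with 1 kb added at each end, that lay under peaks. Genes averaging 2% or more across the 4 libraries, 8372 in all, were tested with line as block (limma, Benjamini-Hochberg adjustment). The test called 0 genes at an adjusted p under 0.05, which is 0% in either direction, and the smallest adjusted p was 0.199. At an unadjusted p under 0.05 there were 1198 genes lower in experiment 2 (14.3%) and 277 higher (3.31%). In 2669 genes (31.9%) both libraries of experiment 2 lay below both of experiment 1, and in 1461 genes (17.5%) both lay above. With the lists as deposited this lean turned, to 1751 genes lower and 2962 higher, and without the filter it was 2974 lower and 4054 higher. These non-overlap counts are descriptions, not calls. Of the 2669 genes with lower libraries, SCAN1#2 lay below both libraries of experiment 1 in 2401 (90.0%), against 50.1% of all tested genes. Of the 1461 with higher libraries it lay above both in 71.7%, against 24.7%. These shares use the experiment 1 values that also chose the genes, so part of the gap comes from that choice.

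The median difference over the tested genes was -1.0 percentage points and the mean difference -4.31. The sign of the median rests on the lists being cut: with the lists as deposited it was 0.91, and without the filter on low values 0.14. Directions of genes and lists are therefore given relative to lists of equal length.

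The 12 named genes with lower coverage in experiment 2 were those with the largest difference shared by both lines, since no gene passed the test. CLDN6, which encodes a claudin of tight junctions (chr16:3014712-3018183, minus strand), was covered over 93.6% in WT and 93.7% in SCAN1#1 in experiment 1 and over 0% in both libraries of experiment 2 and in SCAN1#2. Its neighbour CLDN9, another claudin gene (chr16:3012923-3014505), went from 82.1% and 83.3% to 0% in all 3 libraries of experiment 2. CLDN6 and CLDN9 also had no peak in the deposited lists of experiment 2, while the peak over CLDN6 in experiment 1 ranked 37 in WT and 27 in SCAN1#1; CLDN9 itself lay under smaller peaks beside it. BICDL2, on the other side (chr16:3027682-3036944), stood at 92.6% and 92.6% in experiment 1 and at 21.2% and 15.5% in experiment 2. The groups did not overlap in any of these genes, and limma's differences were -93.7 (SE 6.94), -82.7 (SE 6.85) and -74.2 (SE 6.71) points with an adjusted p of 0.199 each.

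These 3 genes belong to one stretch. In the 50 kb centred on the end of CLDN6 that holds its start, peaks covered 38.1 kb in WT and 34.5 kb in SCAN1#1 in experiment 1. In experiment 2 they covered 7.92 and 6.89 kb, and 7.12 kb in SCAN1#2. What remained in experiment 2 was mainly a peak of 5.10 to 5.18 kb over TNFRSF12A, a receptor gene of the TNF family, and HCFC1R1. TNFRSF12A was covered over 100% and 100% in experiment 1 and over 90.1% and 89.2% in experiment 2. THOC6, a subunit of the THO complex that packages nascent RNA, went from 100% and 100% to 57.9% and 57.1%.

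**Figure D2:**
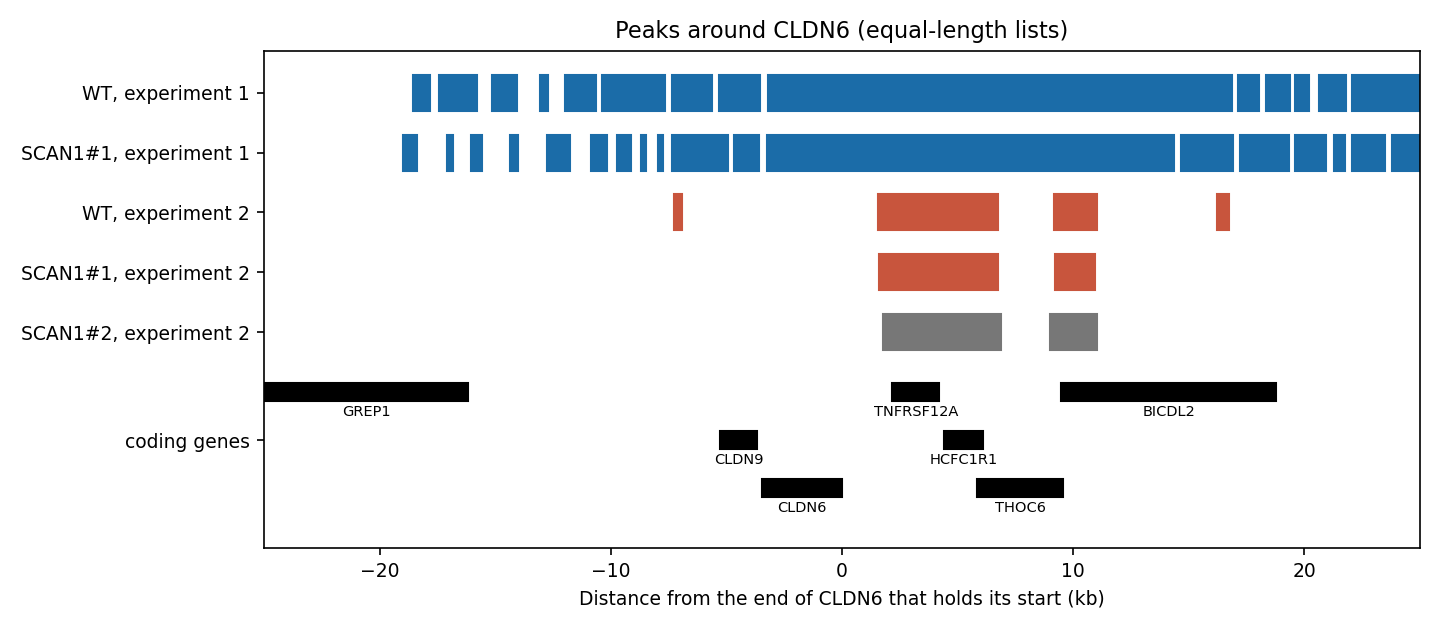
Peaks (filled bars, 1 row per library) and protein-coding genes (black bars) by distance in kb from the end of CLDN6 that holds its start, in equal-length lists. Both libraries of experiment 1 carry near-continuous peaks over 38.1 and 34.5 kb of the 50 kb, whereas the libraries of experiment 2 keep 6.89 to 7.92 kb, mainly over TNFRSF12A and HCFC1R1.

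Such long stretches were counted over the genome after this one had been seen. Peaks separated by at most 1 kb were joined, and joined stretches of 20 kb or more were kept. WT had 135 of them in experiment 1 and 29 in experiment 2, and SCAN1#1 had 176 and 35. SCAN1#2 had 17. They held 9.02% and 10.8% of the peak bases in experiment 1 and 1.96% and 2.05% in experiment 2. The median stretch touched 3 and 2.5 coding genes in experiment 1 and 0 and 1 in experiment 2. The ratio of the mean counts, experiment 2 over experiment 1, was 0.206, and it was 0.211 to 0.274 under the other list settings and a gap of at most 500 bases. The 109 stretches common to both libraries of experiment 1 (3.02 Mb) remained covered over 60.2% in WT and 62.9% in SCAN1#1 of experiment 2, with 52.3% in SCAN1#2, and each of these 3 libraries had no peak in 2 of the 109. Since they were chosen for dense coverage in experiment 1, lower coverage in experiment 2 is no test. The 20 stretches common to both libraries of experiment 2 were covered over 75.3% in WT and 54.3% in SCAN1#1 of experiment 1.

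CTSW, the gene of the lysosomal protease cathepsin W (chr11:65879837-65883741), was covered over 96.2% and 91.5% in experiment 1 and over 10.4% and 11.4% in experiment 2. It abuts FIBP, a gene for a protein that binds fibroblast growth factor, which was the first gene outside the 12. The smaller of the differences of the 2 lines was -58.9 points for both the last gene inside (FAM131A) and FIBP. FLOT1, the flotillin gene of membrane microdomains (chr6:30727709-30742687), stood at 100% and 91.1% against 26.8% and 23.4%. The strongest peak that touches it or its flanks ranked 151 and 106 in experiment 1 and 144 and 137 in experiment 2, and the neighbouring gene IER3 shares this peak. FAM131A (chr3:184335926-184346275), at 70.9% and 86.2% against 12% and 9.21%, had a peak that ranked 765 and 588 in experiment 2 within its length or flanks. In the deposited lists of experiment 2, CTSW was covered over 22.9% and 45.7% and FLOT1 over 40% and 42.2%.

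The other 6 were RNF151, HSD11B1L, NUBP2, an iron-sulfur cluster assembly factor gene, RHBDL1, of the rhomboid family, SCX, the tendon transcription factor scleraxis, and TBC1D17, a GTPase-activating protein gene. RNF151 went from 74.5% and 71.0% to 0% in both lines and to 5.86% in SCAN1#2. NUBP2 varied more within each experiment, with 67.3% and 91.5% in experiment 1 and 0% and 27.0% in experiment 2 (16.6% and 39.8% in the deposited lists). For all 12 genes the SCAN1#2 value lay below both libraries of experiment 1. The 12 had a median length of 5.07 kb and a median of 13 other coding genes within 100 kb, with 8 to 17 such neighbours.

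The named genes with higher coverage in experiment 2 showed smaller differences, from 21.7 to 40.3 points. SDHAF1, which encodes an assembly factor of respiratory complex II (chr19:35995188-35996312), was covered over 0% and 16.9% in experiment 1 and over 39.7% and 57.7% in experiment 2, with 43.1% in SCAN1#2. The difference was 40.3 points (SE 5.55) with limma's adjusted p at 0.199. RPS26, a protein of the small ribosomal subunit (chr12:56041918-56044697), stood at 35.0% and 20.2% against 61.7% and 58.4%. TIMM8B, a chaperone of mitochondrial import, stood at 37.1% and 30.1% against 66.2% and 54.5%. HLA-C, a class I antigen presentation gene, stood at 1.59% and 14.1% against 22.8% and 46.3%. In the deposited WT lists HLA-C was covered over 13.5% in experiment 1 and 25.2% in experiment 2, so its 1.59% comes from the shortened list. MCAM, an adhesion molecule of endothelial and mesenchymal cells, stood at 39.5% and 29.4% against 62.9% and 51.6%. The experiments do not overlap in any of the 12. The others were SPIN2B, AP5B1, FKBPL, FAM241B and the very short genes LOC128031833, LOC127898562 and EBAG9UORF, whose percent is set mostly by the flanks of 1 kb. SCAN1#2 lay above both libraries of experiment 1 in 9 of the 12 genes, and FAM241B was at 0% there. The median number of coding neighbours was 4.5. NKX2-5, the cardiac transcription factor gene, was the first outside the 12.

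**Figure D3:**
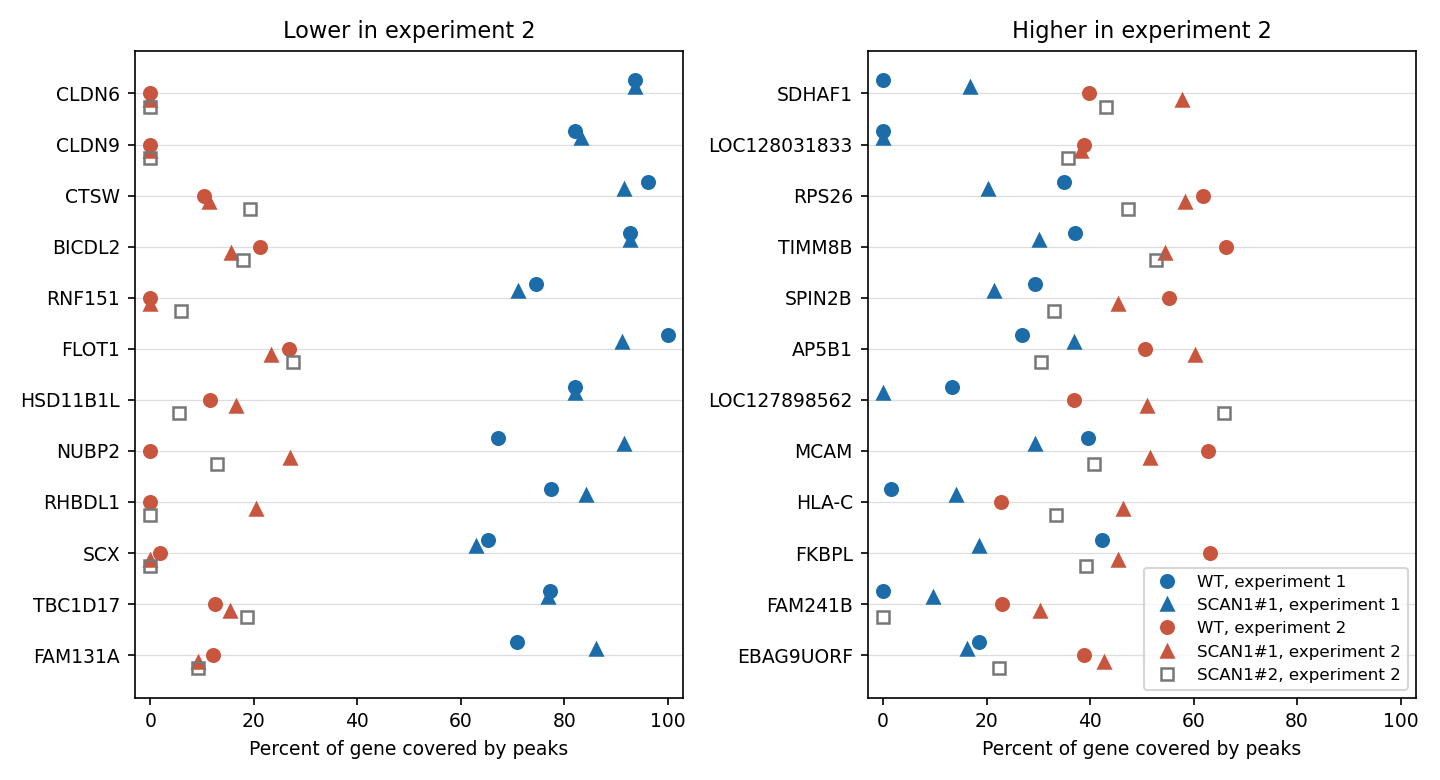
Percent of each named coding gene (1 kb added at both ends) that lies under peaks, 1 point per library, for the 12 genes lower and the 12 higher in experiment 2; markers are as in the plot of class shares. CLDN6 lies at 93.6% and 93.7% in experiment 1 and at 0% in the 3 libraries of experiment 2, and SDHAF1 at 0% and 16.9% against 39.7% to 57.7%.

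Promoter sequences are shown for up to 3 of the named genes per direction. Each had a promoter entry and, in lists of equal length, a promoter peak in both libraries of one experiment alone. The lower side reached this limit, so it need not hold every such gene. They come from RefSeq (GRCh38.p14) and run from 250 bases before to 50 bases after the start, with runs of GGGG or CCCC in capitals, since G-rich stretches are a known feature of R-loop sites. CLDN6 (chr16:3018134-3018433, minus strand), FAM131A (chr3:184338583-184338882, plus strand) and the ribosomal protein gene RPLP2 (chr11:809717-810016, plus strand) had the peak in experiment 1 alone. CCT2 (chr12:69585639-69585938, plus strand), a subunit of the chaperonin that folds actin and tubulin, had it in experiment 2 alone.
CLDN6: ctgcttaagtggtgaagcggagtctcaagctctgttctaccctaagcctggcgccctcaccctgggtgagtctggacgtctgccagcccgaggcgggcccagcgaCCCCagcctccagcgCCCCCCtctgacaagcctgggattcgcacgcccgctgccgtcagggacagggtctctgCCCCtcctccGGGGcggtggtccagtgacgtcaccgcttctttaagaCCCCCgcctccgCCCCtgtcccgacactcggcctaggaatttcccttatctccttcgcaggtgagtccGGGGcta
FAM131A: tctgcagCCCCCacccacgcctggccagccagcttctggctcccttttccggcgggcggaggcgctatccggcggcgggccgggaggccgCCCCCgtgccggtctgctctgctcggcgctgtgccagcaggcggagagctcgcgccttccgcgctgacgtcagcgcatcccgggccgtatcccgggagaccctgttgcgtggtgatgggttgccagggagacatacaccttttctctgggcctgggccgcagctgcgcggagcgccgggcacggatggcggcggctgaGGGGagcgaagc
RPLP2: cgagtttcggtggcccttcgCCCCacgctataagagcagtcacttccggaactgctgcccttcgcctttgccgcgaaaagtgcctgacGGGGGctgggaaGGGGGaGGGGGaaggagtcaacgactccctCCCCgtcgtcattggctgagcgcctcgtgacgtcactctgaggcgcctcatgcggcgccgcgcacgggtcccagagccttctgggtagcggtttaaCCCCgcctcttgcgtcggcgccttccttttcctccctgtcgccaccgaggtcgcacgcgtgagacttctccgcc
CCT2: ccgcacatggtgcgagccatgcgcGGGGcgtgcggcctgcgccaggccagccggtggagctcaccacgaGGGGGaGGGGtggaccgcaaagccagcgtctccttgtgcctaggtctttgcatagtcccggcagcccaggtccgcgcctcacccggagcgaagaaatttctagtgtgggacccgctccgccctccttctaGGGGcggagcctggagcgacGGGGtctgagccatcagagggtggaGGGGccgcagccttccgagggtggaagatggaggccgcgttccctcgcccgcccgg
The windows hold 7, 3, 6 and 6 such runs and are 66.0%, 73.0%, 65.7% and 70.0% G or C, so the promoter recovered in experiment 2 alone does not stand out from those of experiment 1 in either feature. Of 22132 coding promoters, 2591 had a peak in all 4 libraries, 312 in experiment 1 alone and 196 in experiment 2 alone. Their median GC content was 66.0%, 65.7% and 64.3%, against 60.3% for the 15941 promoters with no peak in any of the 4 libraries. A run of GGGG or CCCC (either strand) was found in 98.0%, 98.4% and 97.4% of them and in 93.5% of all promoters of this length. SCAN1#2 had a peak at 25.3% of the promoters of experiment 1 alone and at 71.9% of those of experiment 2 alone. Over all coding promoters the share was 19.8%.

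Most groups of housekeeping genes had more members lower than higher in experiment 2, as did the tested genes as a whole. Such a lean is therefore not by itself a result about a list. For each list the counts are of tested members whose libraries did not overlap, to be read against 31.9% lower and 17.5% higher over all tested genes. All 79 cytosolic ribosomal protein genes were tested, and 34 were lower and 6 higher in experiment 2, with a median difference of -5.32 points. RPLP2, a protein of the ribosomal stalk, stood at 92.4% and 86.5% against 32.7% and 28.0%. In the deposited lists of experiment 2 it was covered over 39.7% in WT and 61.2% in SCAN1#1, so part of the drop comes from the shortened lists. RPL36 stood at 100% and 95.4% against 72.0% and 76.4%. RPS27A, at 37.9% and 36.1% against 51.7% and 53.6%, and RPS26 (above) lay the other way. At least 77 of the 79 genes had a peak in every library. Averaged over the list, coverage was 65.4% and 66.1% in experiment 1 and 58.6% and 62.7% in experiment 2.

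Of 69 replication-dependent histone genes, 40 were tested, 16 lower and 0 higher, with a median difference of -11.9 points. H2BC5 stood at 71.4% and 68.7% against 31.3% and 37.9%, and H4C5 at 55.7% and 79.8% against 0% and 54.4%. In H4C5, where the deposited WT list of experiment 2 gave 17.9%, the SCAN1#1 library of experiment 2 lay just under the WT library of experiment 1, and SCAN1#2, at 56.8%, lay above it. Histone genes include similar copies in clusters, and whether reads were split among them was not tested.

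Of 37 SR and hnRNP splicing factor genes, 36 were tested, 19 lower and 5 higher, with a median of -7.68 points. HNRNPUL1 stood at 48.3% and 48.5% against 16.3% and 16%. HNRNPA1, at 62.5% and 81.4% against 88.7% and 81.7%, lay the other way, with its closest libraries 81.4% and 81.7%. Of 39 translation factor genes, 36 were tested, 17 lower and 2 higher (median -6.41). EIF3G, a subunit of initiation factor 3, stood at 95.3% and 96.4% against 55.0% and 59.4%, and EEF1G, of elongation factor 1, at 91.5% and 78.7% against 42.1% and 47.3%. Neither gene overlapped between the experiments.

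Of 53 cell cycle and mitosis genes, 46 were tested, 23 lower and 2 higher (median -4.33). FOXM1, a transcription factor of mitotic genes, stood at 92.3% and 71.4% against 60.7% and 34.9%. TOP2A, topoisomerase 2 alpha, stood at 46.7% and 45.6% against 13.6% and 15.7%, with 6.96% in SCAN1#2. Of 32 heat shock and chaperone genes, 26 were tested, 14 lower and 1 higher (median -7.13). FKBP4, a co-chaperone of HSP90, stood at 44.7% and 69.0% against 3.67% and 30.1%. CCT2 was the 1 that lay higher, at 0% and 4.13% against 4.68% and 6.43%. Of 33 stress and unfolded protein response genes, 23 were tested, 10 lower and 1 higher (median -4.79).

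Genes for R-loop processing itself, the helicases, nucleases and RNA export factors that resolve or prevent hybrids, numbered 31, of which 22 were tested, 12 lower and 1 higher (median -4.98). Besides THOC6 (above), ALYREF, an mRNA export adaptor, stood at 90.6% and 68.2% against 53.1% and 45.4%. DDX19A, a helicase of the nuclear pore, stood at 47.8% and 33.2% against 11.4% and 8.57%. Of 35 genes for TOP1 and strand-break repair, the pathway of TDP1, 20 were tested, 7 lower and 3 higher (median -2.02). MDC1, a mediator of the DNA damage checkpoint, stood at 66.8% and 42.7% against 18.2% and 26%. This list lay near the background share in both directions.

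Of 29 cholesterol and sterol response genes, 18 were tested, 9 lower and 3 higher (median -3.48, but 0.70 over gene ends alone). FADS1, a fatty acid desaturase gene, stood at 81.6% and 69.8% against 21.3% and 26.8%. PMVK, of the mevalonate pathway, lay the other way at 1.35% and 1.45% against 3.51% and 6.98%. Of 27 YAP and TGF-beta targets, 21 were tested, 7 lower and 4 higher (median -5.93). Of 33 glycolysis and hypoxia genes, 25 were tested, 8 lower and 4 higher (median -2.31). Both the YAP and TGF-beta list and the glycolysis and hypoxia list lay near the background shares.

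In 5 further lists the sign of the median turned with the lists as deposited. All 5 had a smaller share of lower members than the tested genes as a whole. They are the immediate early response genes (25 of 31 tested, 6 lower, 4 higher, median -3.95 against 0.25 as deposited), p53 targets (23 of 28, 6 lower, 2 higher, -1.50 against 1.31), collagen, matrix and mesenchymal genes (21 of 40, 6 lower, 1 higher, -0.64 against 1.02), respiratory chain subunits (60 of 74, 16 lower, 6 higher, -1.8 against 0.35) and the proteasome (31 of 35, 7 lower, 3 higher, -0.54 against 1.07). Among immediate early genes, MCL1, a survival factor, stood at 77.7% and 81.5% against 51.8% and 59.2%, and JUND at 73.9% and 57.8% against 38.5% and 42.3%. BTG2, a growth arrest gene also counted among p53 targets, stood at 0% and 11.6% against 12.7% and 53%. Within the matrix genes, VIM stood at 48.0% and 48.6% against 34.5% and 30.6%, and SPARC at 38.6% and 22.5% against 11.4% and 17.2%.

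Of 10 loci commonly used as DRIP positive controls, 8 were tested, 4 lower and 0 higher (median -5.63). ACTB was covered over 100% in every library. RPL13A stood at 95.5% and 100% against 73.0% and 80.1%, and APOE at 28.3% and 25.3% against 0% in both lines and 14.6% in SCAN1#2. In the deposited list of SCAN1#1 in experiment 2 APOE was covered over 25%, so its 0% there comes from the shortened list. Of 7 negative control loci 1 was tested. Averaged over the 7, coverage was 1.97% and 2.82% in experiment 1 and 1.98% and 2.36% in experiment 2.

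Among the tested zinc finger genes of chromosome 19, slightly more lay on the higher than on the lower side without overlap. Of 250 ZNF genes of chromosome 19, 113 were tested, 22 lower and 27 higher, with a median of 0.52 points that was -0.65 with the 30000 strongest peaks and -0.19 over gene ends. Averaged over all 250, coverage was lower in experiment 2, at 5.24% and 6.77% against 4.74% and 5.80%. ZNF784 lay at 75.7% and 90.1% against 19% and 27.3%, and ZNF134 the other way at 18.7% and 24.9% against 33.6% and 33.9%. Of 387 olfactory receptor genes 21 passed the filter, and a gene at 0 in one experiment passes only through the other, so their counts are not read. Over all 387, mean coverage was 0.422% and 0.222% in experiment 1 and 0.493% and 0.685% in experiment 2, with 0.605% in SCAN1#2. OR5AP2 stood at 3.76% and 0% against 14.2% and 12.5%. Over the 314 genes of 500 kb or longer, mean coverage was 0.354% and 0.285% in experiment 1 and 0.673% and 0.699% in experiment 2, with 0.646% in SCAN1#2. The median of the 8 that were tested was 1.28 points over the whole gene but -6.36 over gene ends. These 8 averaged 2.00% and 2.12% in experiment 1, close to the filter of 2%. A gene under 2% in both libraries of experiment 1 passes only through experiment 2, so this median is not read. Among the 8, CDH4, a cadherin gene, stood at 1.06% and 1.83% against 3.99% and 4.12%. CALN1 stood at 1.38% and 1.36% against 2.64% and 3.33%. Both passed the filter only through experiment 2. Of 39 silent lineage markers 12 passed the filter, 2 lower and 4 higher. The same limit of the filter applies to these markers, so their counts are not read either. OLIG2, a glial transcription factor gene, was at 0% in both libraries of experiment 1 and at 6.65% and 10.4% in experiment 2. GFAP, an astrocyte filament gene, lay the other way at 2.96% and 6.57% against 0% and 0%, and POU5F1, a pluripotency factor gene, was at 16.5% in WT of experiment 1 and at 0% in the other 3 libraries. NKX2-5 stood at 19.9% and 18.3% against 51.2% and 38.5%, with 11.6% in SCAN1#2, below both libraries of experiment 1.

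Across all tested genes, the direction went with how crowded the neighbourhood was. Among 580 genes with at most 1 other coding gene within 100 kb, 10.2% were lower and 32.2% higher in experiment 2. Among 1184 genes with over 10 such neighbours, 52.4% were lower and 5.24% higher. The same order was seen among genes of like length: for genes of 10 to 30 kb, 10.2% against 60.9% were lower in these classes, and for genes of 30 to 100 kb, 14% against 49.2%. Genes over 300 kb were higher in 65.7% of 35 cases. They averaged 2.58% and 2.71% in experiment 1, close to the filter of 2%, which favours genes that are higher in experiment 2. Whether a gene had any peak was counted as well. Of 19839 coding genes, 9808 had one in each of the 4 libraries and 4745 had none. The 297 with a peak in experiment 1 alone had a median length of 13.5 kb, and the 517 of experiment 2 alone 56.1 kb. The other pairings of libraries gave 163 to 234 genes.

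Along the gene, coverage was averaged over genes of at least 5 kb whose strand is known. In 8409 genes with another coding gene near (within 5 kb before the start or 10 kb after the far end), the first kb after the far end was covered over 14.7% and 15.2% in experiment 1 and over 9.98% and 11.8% in experiment 2, with 9.13% in SCAN1#2. This was the largest difference of any window in these genes. The last kb before the start stood at 14.1% and 14.2% against 11.6% and 13.7%, with 13.2% in SCAN1#2. In the 5074 genes with no such neighbour, the first kb after the far end stood at 2.75% and 2.81% against 2.14% and 2.51%, and the last kb before the start at 5.80% and 5.65% against 5.80% and 6.64%. The largest difference in these genes was in the first of 10 equal parts of the gene, at 6.43% and 6.86% against 6.85% and 7.89%. Each line was higher in experiment 2, but the experiments overlapped, since SCAN1#1 of experiment 1 lay just above WT of experiment 2.

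**Figure D4:**
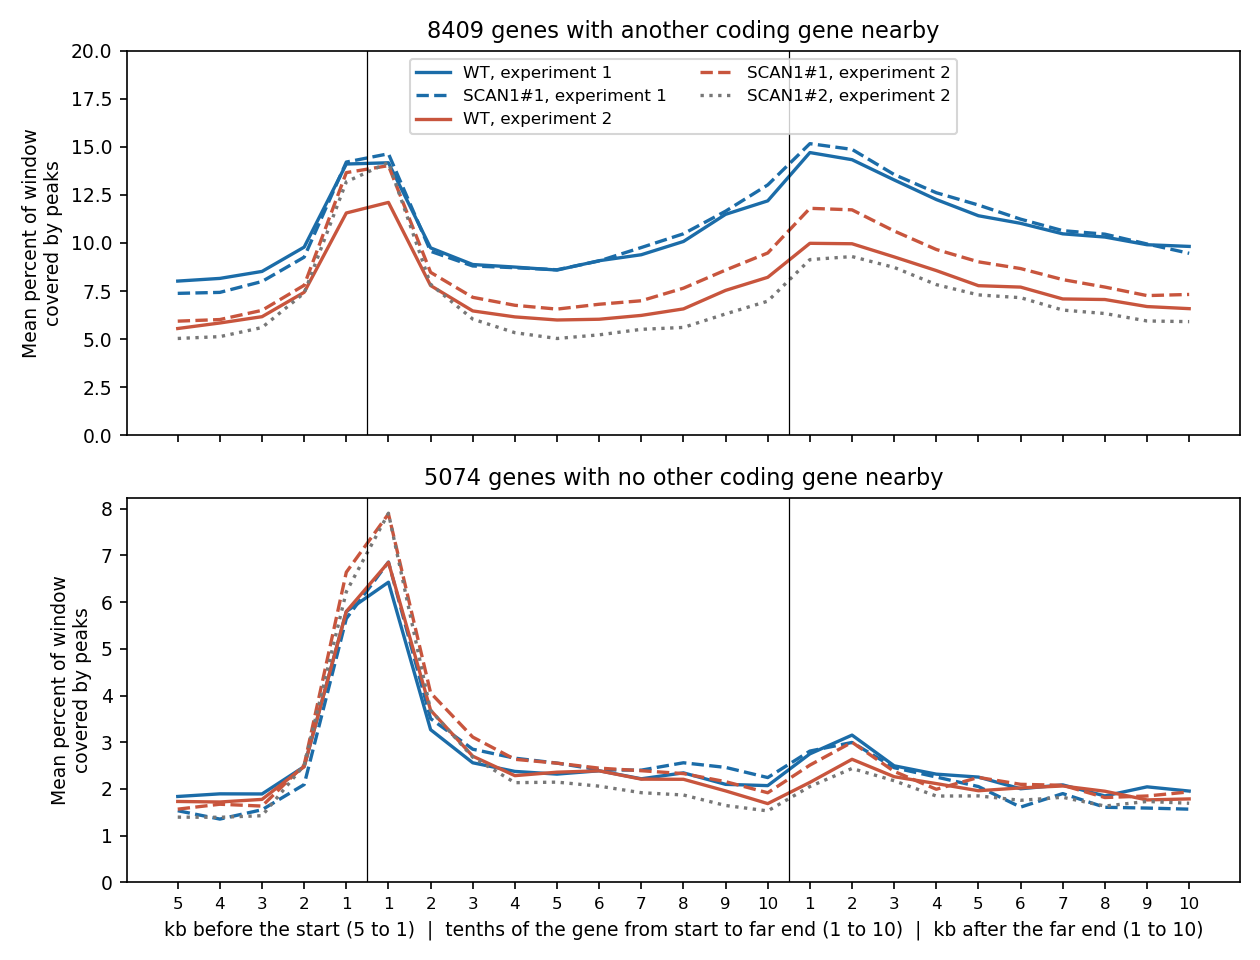
Mean percent of each window covered by peaks along coding genes of at least 5 kb, from 5 kb before the start through 10 equal parts of the gene to 10 kb after the far end; lines are libraries (blue experiment 1, red WT and SCAN1#1 of experiment 2, dotted grey SCAN1#2), the upper panel shows 8409 genes with another coding gene nearby and the lower 5074 without, on different vertical scales. In the upper panel both lines of experiment 1 lie above WT and SCAN1#1 of experiment 2 in every window, with 14.7% and 15.2% against 9.98% and 11.8% just past the far end.

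On the scale of the genome, experiment 2 held more of its peak bases in gene-poor stretches. In 563 bins of 5 Mb, limma on the log2 share of peak bases, with line as block, called 359 bins higher in experiment 2 (63.8%) and 81 lower (14.4%) at an adjusted p under 0.05. Without the block it called 248 higher (44%) and 44 lower (7.82%). Leaving out 1 library at a time brought the calls to between 57 and 215 higher and between 18 and 32 lower, with 57 higher without WT replicate 2, 76 without SCAN1#1 replicate 2 and 215 without WT replicate 1, and 18 lower without WT replicate 2, 19 without SCAN1#1 replicate 1, 24 without SCAN1#1 replicate 2 and 32 without WT replicate 1. The shares of a library sum to a fixed total, so a higher share in some bins goes with a lower share in others. Bins with over 20 coding genes per Mb (30 bins) had a median log2 difference of -0.53, and 28 of them were called lower and 0 higher. Those with at most 2 per Mb (62 bins) had a median of 1.13, and 52 of them were called higher and 0 lower. The gene-densest bins held 25.5% and 27.1% of the peak bases in experiment 1 and 17.4% and 18.5% in experiment 2, with 16.7% in SCAN1#2.

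Across the 563 bins the log2 difference correlated with the log2 of coding gene density by r = -0.785 (Spearman's rho = -0.771). Within WT r was -0.738 and within SCAN1#1 -0.779. These describe bins of the same 4 libraries, and bins are not replicates. The base composition of the bins was not computed, so its part in these correlations was not tested. Chromosome 19, with 24.1 coding genes per Mb, held 9.90% and 10.1% of the peak bases in experiment 1 and 6.77% and 6.97% in experiment 2. Chromosome 4, with 4.02 per Mb, held 2.07% and 2.19% against 3.11% and 3.43%.

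**Figure D5:**
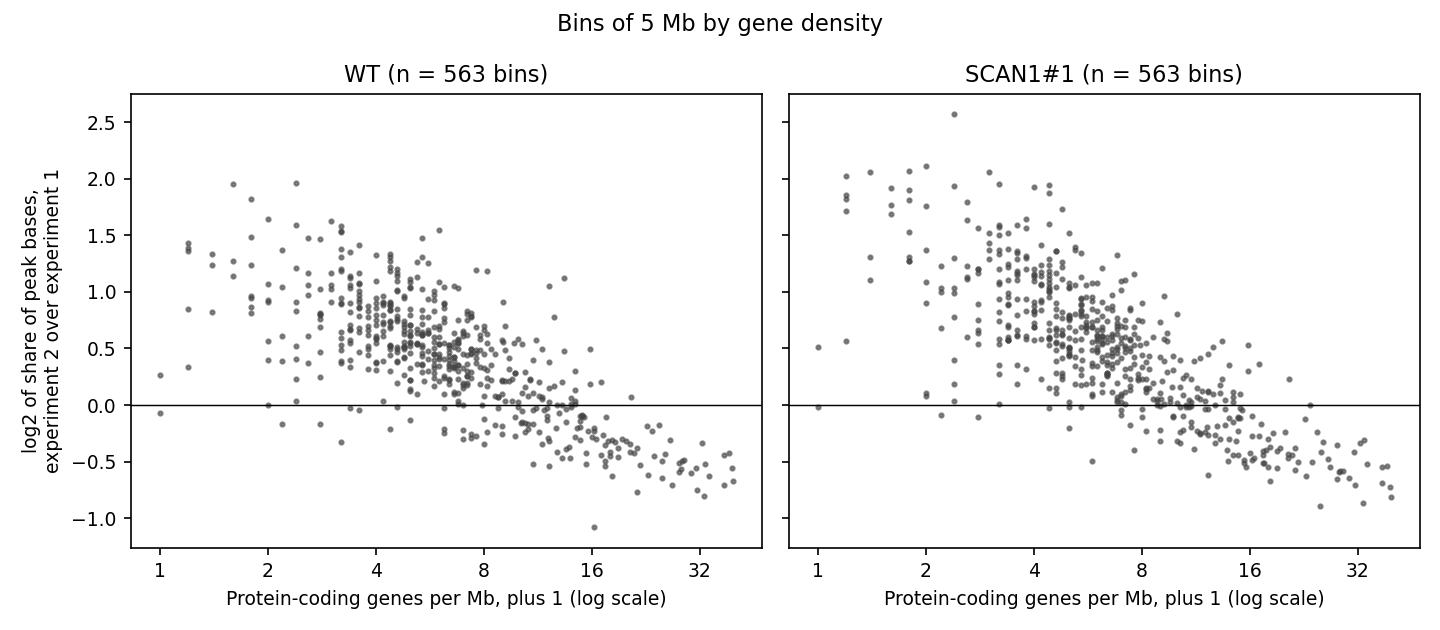
Each point is 1 of 563 bins of 5 Mb; the horizontal axis is the number of coding genes per Mb plus 1 (log scale) and the vertical axis the log2 ratio of the bin's share of peak bases, experiment 2 over experiment 1, in WT (left) and SCAN1#1 (right). Bins poor in genes lie mostly above 0 and the densest below, with r = -0.738 in WT and -0.779 in SCAN1#1.

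Genes that are not protein-coding leaned different ways by different measures. Those tested include genes that overlap coding genes, whereas the region class above left out all sequence in or within 1 kb of coding genes. Of 6855 tested, limma called 0 (0%) at an adjusted p under 0.05 (smallest 0.420). At an unadjusted p under 0.05, 361 were higher (5.27%) and 397 lower (5.79%). Both libraries of experiment 2 lay above both of experiment 1 in 1708 genes (24.9%) and below in 1103 (16.1%), with a median difference of 0.69 points and a mean difference of -1.21. Without WT replicate 1, 16 were called higher and 574 lower; without SCAN1#1 replicate 1, 16 and 482; without SCAN1#1 replicate 2, 623 and 48; without WT replicate 2, none in either direction. The direction of those calls thus turned with the library left out.

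Among noncoding genes that overlap no coding gene, 2 microRNA genes and the transcribed pseudogene LOC107985532 that spans them on chromosome 22 were among the 6 named as lower. MIR301B stood at 100% and 100% in experiment 1 and at 23.8% and 0% in experiment 2. MIR130B stood at 96.4% and 87.6% against 9.46% and 0%. SCAN1#2 was at 0% for both. In the deposited lists, SCAN1#1 of experiment 2 gave 23.4% for MIR301B and 20.3% for MIR130B, and SCAN1#2 gave 15.4% for each. The 0% in these 2 libraries thus comes from the shortened lists. MIR301B and MIR130B are 78 and 82 bases long, so their percents are set mostly by the flanks of 1 kb. These are readings of hybrids over the locus, not of the mature RNAs. The mature sequences are printed from RefSeq (GRCh38.p14), with the seed (bases 2 to 8, which pair with target mRNAs) in capitals, because both genes give a product with 1 seed.
hsa-miR-301b-3p (chr22:21653025-21653047): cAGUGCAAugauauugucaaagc
hsa-miR-130b-3p (chr22:21653354-21653375): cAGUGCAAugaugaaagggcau
hsa-miR-130b-5p (chr22:21653316-21653336): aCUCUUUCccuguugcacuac
The -3p products share the seed AGUGCAA, which 6 of 2370 mature names in the table carry, and hsa-miR-130b-5p has the seed CUCUUUC. The genes lie within 1 kb of each other, so their percents rest on the same peaks.

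LOC107985532 stood at 93.2% and 81.3% against 42.9% and 39.0%. The other lower genes were RN7SL403P, a copy of the signal recognition particle RNA (79.2% and 79.3% against 0% and 0%, but 15.1% and 44.1% in the deposited lists of experiment 2), and the overlapping pair TUFMP1 (100% and 100% against 41.1% and 51.6%) and LOC105371703 (97.0% and 87.7% against 36.5% and 41.9%) on chromosome 17. The higher ones included NORAD, a noncoding RNA that binds Pumilio proteins (chr20:36045618-36050960), at 0% and 11% against 34.2% and 43.4%, with 43.7% in SCAN1#2; its deposited WT list of experiment 1 gave 15.9%. TRQ-CTG3-2, a glutamine tRNA gene, stood at 0% and 0% against 34.4% and 32.3%, with 10.4% in that WT list. The rest were the snoRNA gene LOC124904116 (43.9% and 1.38% against 80.5% and 80.9%) and the pseudogenes COX7BP1, OR2AT1P and RNU6-338P. For short genes such as TRQ-CTG3-2 (72 bases) and LOC124904116 (104 bases), the percent is set mostly by the flanks of 1 kb. SCAN1#2 lay below both libraries of experiment 1 in all 6 of the lower genes and above both in 5 of the 6 higher ones. Over all tested genes that are not protein-coding it lay below both in 27.2% and above both in 31.9%. The named genes were chosen with the same experiment 1 values, so part of the gap comes from that choice. Of 38 RNA polymerase III and snRNA genes, 18 were tested, 3 lower and 4 higher. Of 16 tested snoRNA host genes that are not protein-coding 4 were lower and 1 higher. Over all tested genes that are not protein-coding the shares were 16.1% lower and 24.9% higher. With so few members tested, neither count is read as a result about its list.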

How the data were processed

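DRIP libraries of WT and SCAN1#1 from 2 experiments were compared, with SCAN1#2 as a further library; the 5 inputs were not used. Build hg38 and MACS3 3.0.0a6, deepTools 3.5.1, SAMtools 1.9, BWA 0.7.17-r1188 and FastQC 0.11.5 are named, without roles, in the submitters' processing notes. Per the layout of the deposited files, each list gives a score, a fold enrichment (a ratio), a -log10 p and a -log10 q per peak, called per library. These are the authors' own values and only rank or filter peaks here.

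Lists were cut to 63456 peaks by -log10 p. Genes came from RefSeq (GRCh38.p14, 58554 genes on chromosomes 1 to 22 and X; 15812 of 19839 coding genes have a strand). The percent of each gene covered was fitted with limma 3.58.1 in R 4.3.3 (lmFit, eBayes with trend, line as block, Benjamini-Hochberg, threshold 0.05), and checked on simulated data. Bins used log2 shares with 500 bases added and at least 10 peaks on average. Python 3.11.15, numpy 2.4.6, pandas 2.3.3 and scipy 1.17.1 were used. Replicates pair by cell line, as the labels give it; the deviations from the experiment means correlated by 0.253 between libraries of a line.

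Named genes were those past the threshold or, since none passed, those whose smaller difference of the 2 lines was largest (12 coding and 6 noncoding genes per direction), with up to 4 members per list and direction, or of highest coverage, and the 5 best-ranked regions per experiment alone. Of the list members, the printed ones were chosen after their values were seen. Members and the 26 gene lists were chosen with earlier results of these data known. Alternatives were list length, ranking, scale, filter, gene window, block and left-out libraries. No read depth is given, so no counting interval could be computed.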

Additional observations from a re-analysis of the deposited data

Results flagged for a closer look

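For 3 values WT and SCAN1#1 moved opposite ways between the experiments. Each line has 1 library per experiment, so the difference between the lines was not tested. The number of peaks of at least 5 kb in the cut lists went from 554 to 418 in WT, a change of -136, and from 552 to 594 in SCAN1#1, a change of 42, so the changes differed by 178 peaks. The median difference of the proteasome genes was -1.46 percentage points in WT and 0.555 in SCAN1#1, a gap of 2.01. The log2 ratio of the share of peak bases on chromosome 1 was -0.022 in WT and 0.00088 in SCAN1#1, a gap of 0.023.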

How the results depend on the processing

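No coding gene was called with or without the block for line, and the pairing moved the bin calls from 440 to 292 (44 lower) without the block. With the lists as deposited, 1751 coding genes had lower and 2962 higher libraries without overlap, so the lean turned, as did the median difference (0.91; 0.14 without the filter). Genes with higher libraries numbered 836 with the 30000 strongest peaks and 4054 without the filter, and 2694 noncoding genes were higher with deposited lists. Class differences kept their direction in the alternatives run. In percentage points, those for starts were -2.07 with deposited lists and -3.05 with -log10 q of at least 5, far ends -2.25 with the 30000 strongest peaks and -2.74 with the q limit, ends without strand -0.849 and -1.19 (deposited, q limit), interiors -3.76 and -3.48 (deposited, q limit), and other genes 2.42 by middle base. Regions of experiment 1 alone numbered 3645 (deposited), 3039 (30000 strongest) and 1366 (q limit), and those of experiment 2 alone 16996, 5154 and 18266.

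Leaving out 1 library at a time leaves 1 in an experiment, which is assumed to vary like the others, and makes non-overlap easier to reach. Coding genes without overlap then ranged from 3332 to 4101 lower and from 1978 to 2668 higher, and noncoding genes from 1486 to 2081 lower and from 2442 to 2768 higher. Noncoding calls ranged from 0 to 671 (0 to 623 higher, 0 to 574 lower) and bin calls from 75 to 247 (57 to 215 higher, 18 to 32 lower). Regions of experiment 1 alone ranged from 8770 to 24989 and of experiment 2 alone from 13831 to 23484. These noncoding and bin fits were added after seeing the data, as were the promoter and stretch alternatives.

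The 36 single genes followed kept their direction in 406 of 406 alternatives, but they had been chosen for a large difference shared by both lines, and members that turned were partly avoided. Of 115 list members the rule names, 30 turned direction at least once. List medians kept their sign in 173 of 184 alternatives, and 9 of 23 lists turned at least once. Beside those given above, the medians were 0.53 for respiratory chain subunits and -6.36 for very long genes over gene ends, and -0.31 for silent lineage markers with 5 libraries. Without read depth, a missing peak cannot be told from a weak one.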
